A study of Mus musculus with 18 samples.

Results

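The genes described here encode the mouse major histocompatibility complex (MHC) and its antigen presentation machinery. They were taken by name from the liver expression table: every gene whose symbol starts with H2-, together with B2m, Tap1, Tap2, Tapbp, Cd74, Ciita and Nlrc5, leaving out 2 genes named as pseudogenes and asking for a valid estimate in all 6 groups. This gave 47 of the 37303 genes in the table. The table holds FPKM, a read count scaled to transcript length and to sequencing depth, so that levels can be compared between genes.

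RNA-Seq was performed on poly-A RNA from 18 livers in 6 groups of 3 mice: wild type (WT), Gcn2-/- and Atf4-/- mice, each injected with L-asparaginase (ASNase) or phosphate buffered saline (PBS). ASNase is an enzyme drug that removes asparagine from the circulation. GCN2, a kinase that senses amino acid scarcity, and ATF4, a transcription factor made in response, were absent from the whole body of the respective mice, so hepatocytes and resident or infiltrating immune cells were all affected. All mice had the C57BL/6J background and received 8 daily intraperitoneal injections, of 3 IU per gram body weight in the ASNase groups and of an equal volume in the PBS groups, and were killed 7.5 h after the last one according to the labels. Ages are labelled 8 to 16 weeks for every group, and the Atf4-/- mice carried the Atf4tm1Tow allele. Males made up 1 of 3 mice in WT PBS, Gcn2-/- PBS and Gcn2-/- ASNase and 2 of 3 in WT ASNase, Atf4-/- PBS and Atf4-/- ASNase.

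For each group of 3 mice the authors' table holds a single FPKM made with Cuffdiff, bracketed by a lower and an upper bound. These bounds stand in for replicate error below and are printed as a range after the value. No value of a single mouse was used here, so no test between mice could be made and no p-value is given. A gene was called in a comparison when FPKM was above 0 in both groups and over 3 in at least 1, the difference of log2(FPKM + 0.1) was over 1.5 in size, and the bounds of the groups did not overlap. An approximate half-width that combines the bounds of both groups follows each log2 difference after a ± sign. Where 6 values of a gene stand in a row, they are those of PBS and ASNase for WT, then Gcn2-/-, then Atf4-/- livers. The 9 comparisons share groups and are therefore not independent of each other. Among genes over 3 FPKM the upper bound lay a median of 51.3% to 54.2% above the value, depending on the group, so only large differences could be told from this error.

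Between 11114 and 11606 genes exceeded 1 FPKM per group. The hepatocyte markers were high throughout, with 6 usable markers summing to 3670 to 8402 FPKM. WT PBS livers stood apart by lung epithelium markers (Sftpc 23.1 FPKM and Scgb1a1 104 FPKM, against at most 0.326 FPKM for either in the other groups), and skeletal muscle markers summed to 534 FPKM in WT PBS and 795 FPKM in WT ASNase against 5.68 to 99.2 FPKM in the other groups. The part of these tissues in the results was not tested. Eif2ak4, which encodes GCN2, read 2.19 to 3.14 FPKM in every group, and Atf4 read 32.3 and 29.3 FPKM in the Atf4-/- groups against 50.4 to 68.1 FPKM in the others. A gene-level FPKM also counts exons outside a deleted part, so these values do not check the genotype labels.

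MHC class I molecules are made by nearly every nucleated cell. A heavy chain binds the light chain encoded by B2m in the endoplasmic reticulum, where peptides from the cytosol are delivered by the TAP transporter and loaded with the help of tapasin, and the complex is shown to CD8 T cells. Class II molecules are pairs of an alpha and a beta chain made mainly by B cells, dendritic cells and macrophages. The invariant chain encoded by Cd74 guides them to endosomes, H2-DM exchanges its remnant for a peptide, and the complex is shown to CD4 T cells. Hepatocytes normally carry class I and little or no class II. Class I and class II promoters share an upstream module of X1 and Y boxes, bound by the RFX complex and NF-Y and used by the coactivators NLRC5 (class I) and CIITA (class II), and class I promoters carry in addition a palindromic enhancer A bound by NF-kappaB.

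The members were sorted into 2 classical class I heavy chains, 25 nonclassical class I genes of the Q, T and M regions, 5 class I assembly genes, 4 class II chains, 5 nonclassical class II genes (H2-DM and H2-O), 2 class II assembly genes (Cd74 and Ciita) and 2 further genes of the complex that do not present antigen (H2-Ke2 and H2-Ke6), with H2-K2 and H2-Q3 in no class. In the GENCODE M21 annotation of the GRCm38 build, 43 of the 47 lie on chromosome 17, and B2m, Cd74, Ciita and Nlrc5 lie elsewhere. That annotation types 5 members as pseudogenes or polymorphic pseudogenes (H2-K2, H2-Q3, H2-Q5, H2-Bl and H2-T10). Over 1 FPKM in at least 1 group were 29 members. The other 18 were H2-DMb2, H2-Ob, H2-Oa, Ciita, H2-Eb2, H2-M2, H2-M5, H2-M9, H2-M10.1, H2-M10.2, H2-M10.5, H2-M10.6 and H2-T3, together with H2-M1, H2-M10.3, H2-M10.4, H2-M11 and H2-Q3, which were listed at 0 in all groups.

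The 5 promoters below are shown because their genes behaved differently in the knockouts under ASNase. H2-Aa and H2-Eb1 stand for the class II chains that fell there. H2-D1 and H2-Q7 stand for class I genes that were not lower there (in WT both were lower, not called). H2-Q10 stands for the class I gene of hepatocytes. Each is the 200 bases just upstream of the RefSeq gene start (GRCm38.p6), 5′ to 3′ on the gene's strand, with matches to 3 motifs in capitals: the X1 box (GNNACNNATG), the Y box (ATTGG) and enhancer A (GGGATTCCC), each on either strand.
H2-Aa, chr17:34287824-34288023, minus strand: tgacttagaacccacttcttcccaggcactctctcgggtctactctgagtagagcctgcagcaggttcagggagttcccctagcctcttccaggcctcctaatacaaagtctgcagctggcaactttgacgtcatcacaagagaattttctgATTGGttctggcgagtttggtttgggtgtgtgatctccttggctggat
H2-Eb1, chr17:34305667-34305866, plus strand: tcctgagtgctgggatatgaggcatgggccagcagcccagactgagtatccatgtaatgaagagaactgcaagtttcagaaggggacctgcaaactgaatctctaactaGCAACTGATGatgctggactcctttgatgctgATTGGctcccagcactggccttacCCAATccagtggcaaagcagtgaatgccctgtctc
H2-D1, chr17:35262894-35263093, plus strand: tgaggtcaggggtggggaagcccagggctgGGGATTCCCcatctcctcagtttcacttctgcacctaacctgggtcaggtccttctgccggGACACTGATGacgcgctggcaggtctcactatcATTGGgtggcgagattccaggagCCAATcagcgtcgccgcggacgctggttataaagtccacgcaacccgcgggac
H2-Q7, chr17:35438955-35439154, plus strand: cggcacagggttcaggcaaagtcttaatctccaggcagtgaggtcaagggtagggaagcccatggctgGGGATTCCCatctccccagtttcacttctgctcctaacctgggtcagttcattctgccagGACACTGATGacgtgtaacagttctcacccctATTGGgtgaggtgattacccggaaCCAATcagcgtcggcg
H2-Q10, chr17:35469889-35470088, plus strand: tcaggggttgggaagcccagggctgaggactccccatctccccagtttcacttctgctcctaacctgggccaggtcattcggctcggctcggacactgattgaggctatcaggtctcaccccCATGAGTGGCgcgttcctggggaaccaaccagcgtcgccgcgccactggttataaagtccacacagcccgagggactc

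H2-Aa showed a Y box 48 to 44 bases before its start. H2-Eb1 showed an X1 box followed by a Y box and a second Y box on the opposite strand. H2-D1 and H2-Q7 showed the same run of enhancer A, X1 box and a pair of Y boxes. In the H2-Q10 stretch only an X1 match on the opposite strand was found, at -78 to -69. RefSeq windows from 250 bases before to 50 bases after the start were at hand for 34 of the 47 members. The Y box was in 31 of these (91.2%, against 37.4% of all 32851 windows), with all 8 class II windows and 20 of the 23 windows of class I heavy chains and B2m among them. X1 and Y boxes occurred together in 16 members (47.1% against 4.09% of all windows). Enhancer A, a motif added after these sequences had been read, was in 4 members (H2-K1, H2-D1, H2-Q6 and H2-Q7, 11.8% against 0.353%). An interferon-stimulated response element (ISRE, GAAANNGAAA) was in B2m, H2-T22 and H2-T23 (8.82% against 3.44%), and a gamma-activated site (GAS, TTCNNNGAA) in H2-DMb2, H2-M11 and H2-M3 (8.82% against 8.30%). A C/EBP-ATF response element (TGATGNAA), the type of site ATF4 binds, was in H2-M11 and H2-Ob (5.88% against 3.97%), and a kappaB site (GGGANNTTCC) in B2m (2.94% against 1.47%). A match describes letters in a window and does not show that a factor was bound.

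Counted over all members, ASNase gave no call in WT livers (0 of 23 that could be called, beside 0.881% of all genes that could be), although 33 of 47 members were lower and 5 higher. In Gcn2-/- livers 5 of 23 members fell (Cd74, H2-Aa, H2-Ab1, H2-Eb1 and H2-Q1), beside 2.13% of all genes that could be called, and 0 rose, beside 1.56%. In Atf4-/- livers 4 of 23 fell (the same genes without H2-Q1), beside 4.63%, and 0 rose, beside 2.74%. With the difference set against its half-width in place of separate bounds, 8 fell in Atf4-/- livers, the others being H2-DMa, H2-DMb1, H2-K2 and H2-Q10. The 4.63% belongs to separate bounds, and the share of all genes under this looser rule is not reported here. Between strains given PBS, Gcn2-/- against WT gave 0 of 23 (1.04% of all genes called), Atf4-/- against WT 1 of 24 lower (0.763%) and Atf4-/- against Gcn2-/- 1 of 24 lower (0.433%), H2-Q1 each time. Between strains given ASNase, Gcn2-/- against WT gave 4 of 22 lower (2.59%) and 0 higher (1.83%), and Atf4-/- against WT gave 5 of 22 lower (5.66%) and 3 higher (2.59%). Atf4-/- against Gcn2-/- gave 0 of 20 (3.19%). In all, 8 members were called at least once, a count without a share of all genes beside it.

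**Figure D1:**
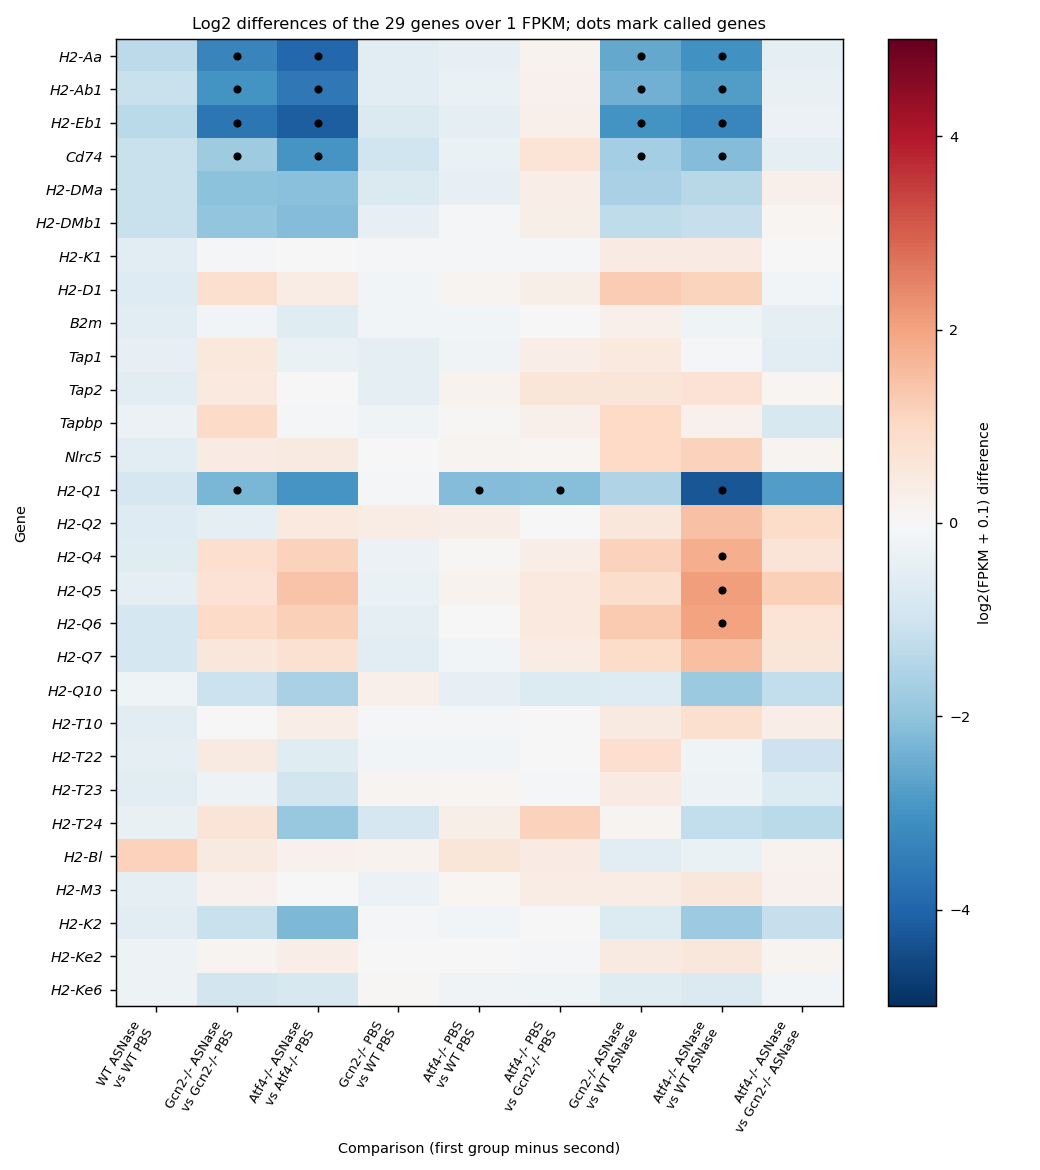
Differences of log2(FPKM + 0.1) for the 29 members over 1 FPKM (vertical axis, by class) in the 9 comparisons (horizontal axis, first group minus second); blue is lower and red higher in the first group, and dots mark called genes. Dots stand at H2-Aa, H2-Ab1, H2-Eb1 and Cd74 in 4 comparisons, at H2-Q1 in 4, and at H2-Q4, H2-Q5 and H2-Q6 in Atf4-/- ASNase against WT ASNase.

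The 3 abundant class II chains fell in both knockout strains under ASNase. H2-Aa encodes the alpha chain of the I-A molecule. Under PBS and ASNase, WT livers read 47.8 (27.1 to 68.6) and 19.2 (10.51 to 28.0) FPKM of H2-Aa, Gcn2-/- livers 32.0 (17.3 to 46.6) and 3.16 (1.13 to 5.20), and Atf4-/- livers 35.9 (20.7 to 51.0) and 2.25 (0.571 to 3.92). The knockout ASNase groups lay below all other groups without overlap, and the WT ASNase group lay between, with its upper bound just above the lower bound of WT PBS. The log2 difference of ASNase from PBS was -3.30 ± 1.12 for H2-Aa in Gcn2-/- livers (called), -3.94 ± 1.20 in Atf4-/- livers (called) and -1.31 ± 0.90 in WT livers (not called).

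H2-Ab1, the beta chain that pairs with it, read 38.0, 17.3, 25.8, 3.16, 29.9 and 2.42 FPKM. H2-Eb1, the beta chain of the I-E molecule, read 31.6, 12.5, 19.2, 1.47, 22.7 and 1.20 FPKM. Both ranked the 6 groups as H2-Aa did, from WT PBS down to Atf4-/- ASNase. H2-Ab1 was called, with log2 differences of -2.99 ± 1.08 (Gcn2-/-) and -3.57 ± 1.14 (Atf4-/-). H2-Eb1 was called with -3.62 ± 1.20 and -4.13 ± 1.18, the largest decrease of any member in either comparison. The WT differences were -1.13 ± 0.90 for H2-Ab1 and -1.33 ± 0.92 for H2-Eb1 and were not called. None of these 3 chains and Cd74 shared a 100-base stretch of transcript with another gene, so their reads could be placed.

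Cd74, the invariant chain, was the most abundant class II gene. Under PBS and ASNase, WT livers read 108 (59.5 to 157) and 50.4 (28.6 to 72.2) FPKM of Cd74, Gcn2-/- livers 54.0 (30.7 to 77.4) and 15.6 (8.38 to 22.9), and Atf4-/- livers 86.6 (49.5 to 124) and 11.02 (5.62 to 16.4). Its log2 difference under ASNase was -1.78 ± 0.91 for the Gcn2-/- strain and -2.96 ± 0.93 for the Atf4-/- strain, both called, and -1.1003 ± 0.90 for WT, not called. Summed over H2-Aa, H2-Ab1 and H2-Eb1, WT livers kept 41.8% of the PBS level under ASNase, Gcn2-/- livers 10.12% and Atf4-/- livers 6.63%, and for Cd74 the shares were 46.6%, 28.95% and 12.7%. These livers are bulk tissue, in which fewer cells of a type and less RNA per cell cannot be told apart.

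**Figure D2:**
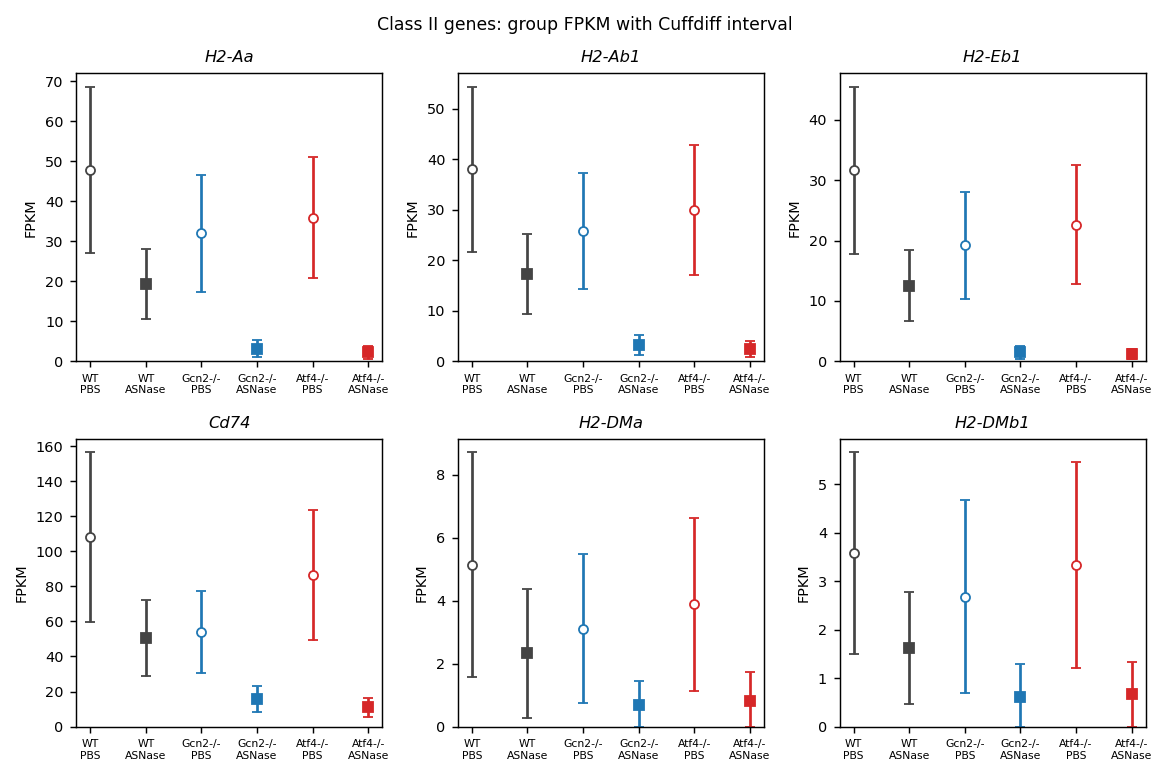
FPKM of 6 class II genes (vertical axes from 0, a separate scale for each gene) in the 6 groups. Points are the authors' group values from 3 livers each, open circles PBS and filled squares ASNase, and bars run between the Cuffdiff bounds. H2-Aa drops from 32.0 to 3.16 FPKM (Gcn2-/-) and from 35.9 to 2.25 FPKM (Atf4-/-), and the other 5 genes show the same order of PBS above ASNase in each strain.

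The peptide exchange factor H2-DM was lower in the same groups, at levels that left wide bounds. H2-DMa read 5.14, 2.32, 3.11, 0.684, 3.89 and 0.825 FPKM. H2-DMb1 read 3.58, 1.62, 2.68, 0.615, 3.34 and 0.665 FPKM. Their log2 differences under ASNase were -2.03 ± 1.78 and -1.96 ± 1.70 for Gcn2-/-, and -2.11 ± 1.74 and -2.17 ± 1.55 for Atf4-/-, with overlapping bounds, so neither was called, although each was over its half-width. In Gcn2-/- livers H2-DMb1 was also under 3 FPKM with PBS and with ASNase, so it could not be called there. H2-DMb1 shared 11.3% of its 100-base stretches with H2-DMb2, a near copy, so their reads may be split between them. Ciita, the class II transactivator, stayed at or under 0.390 FPKM, where its 6 values ran in the same order of groups as those of H2-Aa, from WT PBS down to 0.0196 FPKM in Atf4-/- ASNase. H2-Ob, the beta chain of H2-O, which restrains H2-DM in B cells, also had this order of groups, as did 6 members in all (H2-Aa, H2-Ab1, H2-Eb1, Cd74, Ciita and H2-Ob). Of the 11 class II members, all 11 were lower after ASNase in each knockout strain and 10 of 11 in WT. The median of their log2 differences was -1.11 (WT), -1.96 (Gcn2-/-) and -2.18 (Atf4-/-), beside -0.01, 0.02 and 0.08 over all genes that could be called. Of the 11 members only 6, 5 and 6 could themselves be called, so their medians include genes too low for a call.

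Set directly against WT ASNase, the same 4 class II genes were lower in both knockouts given ASNase. The log2 differences for Gcn2-/- were -2.57 ± 1.11 for H2-Aa, -2.42 ± 1.09 for H2-Ab1, -3.00 ± 1.20 for H2-Eb1 and -1.68 ± 0.91 for Cd74. For Atf4-/- they were -3.04 ± 1.22, -2.79 ± 1.16, -3.28 ± 1.21 and -2.18 ± 0.94. All 8 values were called. Between Atf4-/- ASNase and Gcn2-/- ASNase no class II gene was called, and the differences of these 4 genes were -0.27 to -0.50, smaller than their half-widths of 0.97 to 1.41. The difference between strains in the ASNase response exceeded its combined half-width for H2-Aa in Gcn2-/- against WT (-1.99 ± 1.44) and in Atf4-/- against WT (-2.63 ± 1.498), likewise for H2-Ab1 and H2-Eb1, and for Cd74 in Atf4-/- (-1.86 ± 1.30) and not in Gcn2-/- (-0.68 ± 1.28). This is a comparison of group values and their bounds, and not a test between mice.

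Without ASNase, no class II gene was called between strains. For H2-Aa in PBS groups the log2 difference from WT was -0.58 ± 0.91 for Gcn2-/- and -0.41 ± 0.87 for Atf4-/-, smaller than its half-widths. For Cd74 the difference of Gcn2-/- from WT was slightly larger than its half-width (-1.0004 ± 0.90), but the bounds overlapped. WT PBS, which held lung markers, was the highest group for all 4 abundant class II genes, and the part of lung RNA in that level was not tested.

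Markers of lymphocytes were also lower after ASNase, but their sums stood in other proportions between strains than the class II chains. The 4 B cell markers reported (Cd79a, Cd79b, Ms4a1 and Cd22) summed to 3.32 FPKM under PBS and 1.08 under ASNase for WT, 2.19 and 0.670 for Gcn2-/-, and 3.00 and 0.377 for Atf4-/-, and each of the 4 was lower after ASNase in every strain. The same held for all 7 T cell markers, whose sum went from 4.13 to 1.21 FPKM (WT), from 2.34 to 1.09 (Gcn2-/-) and from 3.44 to 0.893 (Atf4-/-). It also held for all 4 NK cell markers, whose sum went from 2.90 to 1.19, from 1.82 to 0.488 and from 2.48 to 0.313 FPKM. These genes lay too low to be called, none of the B or T cell markers was at 0 in any group, and 1 NK cell marker was at 0 in Atf4-/- ASNase. In WT the B cell sum after ASNase was 32.5% of PBS, a lower share than that of the class II chains (41.8%). In the knockouts it was a higher one (30.6% and 12.6%). The T cell sum stood at 29.3% (WT), 46.5% (Gcn2-/-) and 26.0% (Atf4-/-) of PBS, and the NK cell sum at 40.9%, 26.7% and 12.6%.

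Myeloid markers were mixed. The 7 dendritic cell markers summed to 1.94 to 3.35 FPKM over the groups, led by Zbtb46 and Clec9a. After ASNase 5 of 7 were lower in WT, 6 of 7 in Gcn2-/- and 5 of 7 in Atf4-/- livers. Zbtb46 and Clec9a were higher after ASNase in Atf4-/- livers, at 1.55 against 1.37 FPKM and 1.66 against 1.12 FPKM. In the knockouts, Itgax, Flt3, Xcr1 and Cd209a lay at 0.119 to 0.242 FPKM under PBS and at most 0.0774 FPKM under ASNase. Siglech, of plasmacytoid cells, read 0.136 and 0.199 FPKM in the knockout PBS groups and was listed at 0 in both knockout ASNase groups. The 8 Kupffer cell markers summed to 137 to 281 FPKM. After ASNase all 8 were lower in WT, 5 of 8 were higher in Gcn2-/- livers and 7 of 8 were lower in Atf4-/- livers, with median log2 differences of -0.73, 0.38 and -1.04. Clec4f, the marker of resident Kupffer cells, read 96.8, 52.4, 67.3, 15.9, 102 and 30.1 FPKM. Timd4 and Emr1 were among those higher in Gcn2-/- ASNase than in Gcn2-/- PBS, at 4.12 against 2.97 FPKM and 12.9 against 5.17 FPKM. Marco, a macrophage scavenger receptor, went from 8.32 to 118 FPKM (Gcn2-/-) and from 9.22 to 67.3 FPKM (Atf4-/-), and rose by the call rule in both. Cd5l, a protein secreted by macrophages, fell in Atf4-/- livers (log2 difference -1.55 ± 0.94). The 4 monocyte markers summed to 38.7 to 134 FPKM, nearly all of it Lyz2, which went from 54.1 to 134 FPKM in Gcn2-/- livers. After ASNase 3 of the 4 were lower in each strain. Ly6c2 went from 0.577 to 0.0627 FPKM (Gcn2-/-) and from 0.970 to 0.0345 FPKM (Atf4-/-). Ccr2 went from 0.609 to 0.0446 FPKM and from 0.518 to 0.0573 FPKM. The part of any of these cell types in the class II result was not tested.

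**Figure D3:**
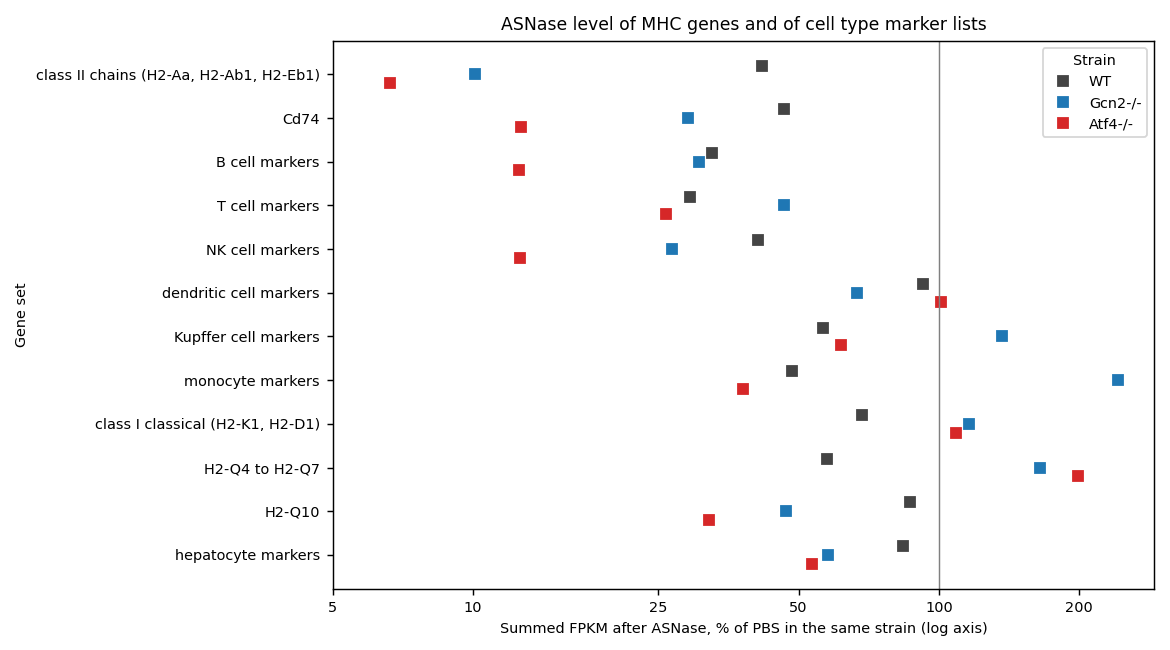
Summed FPKM after ASNase as a percent of PBS in the same strain (horizontal log axis) for MHC gene sets and cell type marker lists; each square is 1 strain and the grey line marks 100%. Class II chains stand at 41.8% (WT), 10.12% (Gcn2-/-) and 6.63% (Atf4-/-), with B, T and NK cell markers also below 50% in every strain, while H2-Q4 to H2-Q7 stand above 100% in both knockouts.

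Over the 6 groups, the genes whose profile was most like that of the classical class II chains (median log2 level, 2446 candidate genes over 3 FPKM in at least 1 group with a range over 1.5 log2) were Hba-a1 (Pearson r 0.997), Hba-a2 (0.996), Dhrs3 (0.995), Sort1 (0.992) and Fam89a (0.992). Hba-a1 and Hba-a2 encode alpha globin of red blood cells, and Hba-a1 read 57.4, 24.9, 31.3, 1.24, 43.0 and 0.791 FPKM. With 6 points that share their groups and were ranked out of many genes, r is a description. Blood in the tissue was not measured, and its part in the class II levels was not tested.

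Classical class I genes gave no call in any of the 9 comparisons. H2-K1 displays peptides to CD8 T cells. WT livers read 868 (324 to 1412) FPKM of H2-K1 under PBS and 605 (253 to 957) under ASNase, Gcn2-/- livers 835 (320.0 to 1351) and 813 (310.5 to 1315), and Atf4-/- livers 806 (295 to 1316) and 811 (297 to 1324). All 6 ranges overlapped. H2-D1, the second classical heavy chain of this strain, read 310.0, 199, 279, 479, 339 and 437 FPKM, with log2 differences under ASNase of -0.64 ± 1.497 (WT), 0.78 ± 1.55 (Gcn2-/-) and 0.37 ± 1.61 (Atf4-/-), none called. B2m, the light chain, was the most abundant member and read 2396, 1648, 2157, 1952, 2194 and 1431 FPKM, with overlapping bounds. Summed over H2-K1 and H2-D1, ASNase groups stood at 68.3%, 116% and 109% of their PBS groups in WT, Gcn2-/- and Atf4-/-, beside the 41.8%, 10.12% and 6.63% of the class II chains. The bounds leave room for a change of class I: for H2-K1 in Atf4-/- livers the log2 difference was 0.01 ± 1.29.

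The loading machinery gave no call in any of the 9 comparisons. Tap1 and Tap2, the subunits of the peptide transporter, ranged over the groups from 9.03 to 13.3 FPKM and from 8.26 to 13.5 FPKM. Tapbp, which encodes tapasin, was lowest in WT ASNase (33.7 FPKM) and highest in Gcn2-/- ASNase (67.4 FPKM, 15.9 to 119). Nlrc5, the class I transactivator, read 6.26, 4.17, 6.35, 8.49, 6.88 and 9.42 FPKM. All 5 assembly genes were lower in WT ASNase than in WT PBS, by 0.28 to 0.57 on the log2 scale. Against WT ASNase, Gcn2-/- ASNase was higher for all 5, with a median log2 difference of 0.60, and Atf4-/- ASNase for 3 of 5, none of them called.

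The nonclassical genes of the Q region divided into genes that were higher and genes that were lower in the knockout ASNase groups. H2-Q4, H2-Q5, H2-Q6 and H2-Q7 encode Qa heavy chains, H2-Q7 among them a Qa-2 molecule that can be anchored by a lipid. WT livers read 25.1 (14.2 to 36.0) FPKM of H2-Q4 under PBS and 16.5 (9.32 to 23.6) under ASNase, Gcn2-/- livers 20.6 (11.8 to 29.3) and 36.8 (20.9 to 52.7), and Atf4-/- livers 26.1 (14.8 to 37.5) and 58.0 (28.7 to 87.3). H2-Q6 read 14.0, 7.63, 9.81, 19.1, 13.7 and 31.0 FPKM. H2-Q7 read 50.7, 27.2, 35.0, 51.6, 45.8 and 78.4 FPKM, and H2-Q5 read 2.93, 2.05, 2.299, 3.85, 3.30 and 8.94 FPKM. All 4 were lowest in WT ASNase and highest in Atf4-/- ASNase.

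Between these extreme groups H2-Q4 was higher by 1.81 ± 0.96, H2-Q5 by 2.07 ± 1.28 and H2-Q6 by 2.01 ± 0.94 on the log2 scale, and these 3 were called, while H2-Q7 differed by 1.52 ± 1.01 with overlapping bounds. Within a strain none of the 4 was called: the ASNase minus PBS differences were -0.50 to -0.89 (WT), 0.56 to 0.96 (Gcn2-/-) and 0.78 to 1.41 (Atf4-/-). The sign of the response was negative for all 4 in WT and positive for all 4 in both knockouts, and for H2-Q6 the responses of Atf4-/- and WT differed by 2.04 ± 1.28 and those of Gcn2-/- and WT by 1.82 ± 1.29. These 4 genes shared 12.0% to 14.1% of their 100-base stretches with other genes. The gene that shared most was H2-Q7 for H2-Q5 and H2-Q6, H2-Q10 for H2-Q7 and the gene model Gm11131 for H2-Q4, so their levels are uncertain one by one. H2-Q5 is typed as a polymorphic pseudogene.

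H2-Q10, a secreted class I heavy chain made chiefly by hepatocytes, was second only to B2m among the members in every group except Atf4-/- ASNase. WT livers read 1469 (451 to 2486) FPKM of H2-Q10 under PBS and 1273 (435 to 2110.3) under ASNase, Gcn2-/- livers 1748 (466 to 3030.3) and 821 (276 to 1366), and Atf4-/- livers 1091 (391 to 1790.2) and 351 (155 to 548). The log2 difference under ASNase was -0.21 ± 1.38 (WT), -1.09 ± 1.43 (Gcn2-/-) and -1.64 ± 1.23 (Atf4-/-). The last passed the limit of 1.5, but its bounds overlapped, as did those of Atf4-/- ASNase against WT ASNase (-1.86 ± 1.25), so H2-Q10 was not called. The 6 hepatocyte markers summed after ASNase to 83.9%, 57.8% and 53.5% of PBS in WT, Gcn2-/- and Atf4-/- livers, beside 86.7%, 46.9% and 32.2% for H2-Q10. Ttr alone carried most of that sum, at 76.5%, 35.3% and 24.1% of PBS, and the other 5 markers stood at 96.9%, 90.1% and 84.9%. The part of the hepatocyte share in the level of H2-Q10 was not tested.

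H2-Q1 had the largest difference between groups of any member with the pseudocount of 0.1 (log2 5.13 between highest and lowest), but with a pseudocount of 1 it came to 3.03, behind H2-Aa (3.91), H2-Eb1 (3.89), H2-Ab1 (3.51) and Cd74 (3.18). Under PBS and ASNase, WT livers read 8.27 (4.34 to 12.2) and 4.55 (2.27 to 6.84) FPKM of H2-Q1, Gcn2-/- livers 8.03 (4.34 to 11.7) and 1.55 (0.543 to 2.57), and Atf4-/- livers 1.74 (0.626 to 2.85) and 0.138 (0 to 0.289). It was the only member called between strains given PBS: Atf4-/- differed from WT by -2.19 ± 1.11 and from Gcn2-/- by -2.14 ± 1.09 on the log2 scale. Under ASNase the log2 difference was -2.297 ± 1.098 within Gcn2-/- livers and -4.29 ± 1.16 between Atf4-/- ASNase and WT ASNase, both called. Within Atf4-/- livers the difference was -2.95 ± 1.26, but neither group exceeded 3 FPKM, so it could not be called. With a pseudocount of 1 these last differences were -2.29 between Atf4-/- and WT and -1.27 within Atf4-/- livers, since the value of Atf4-/- ASNase is near 0. It shared 8.05% of its 100-base stretches with other genes, among them H2-Q2 and H2-D1. H2-Q2, its neighbour, read 0.343 to 1.12 FPKM with its highest value in Atf4-/- ASNase.

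**Figure D4:**
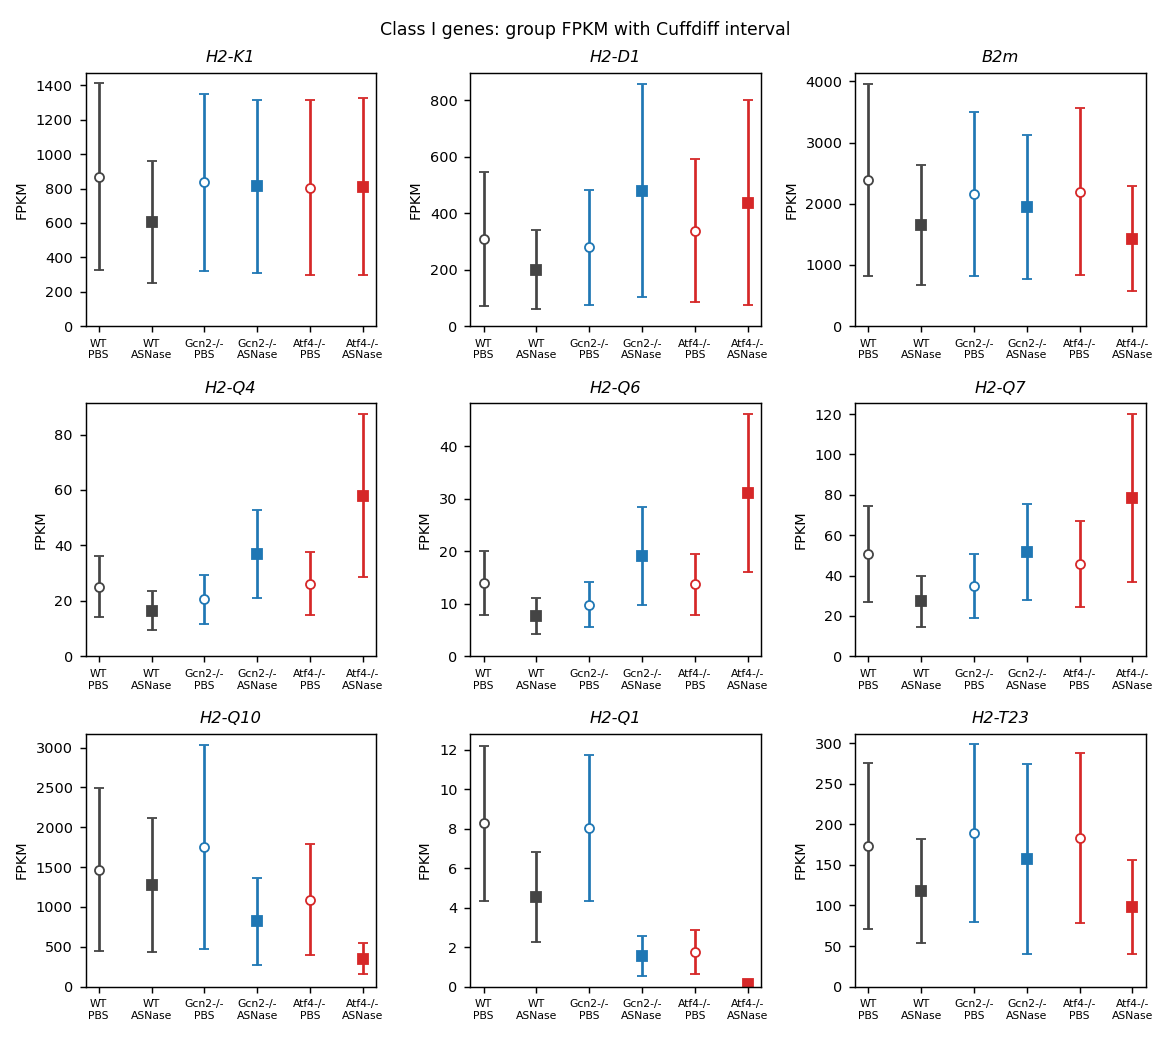
FPKM of 9 class I genes (vertical axes from 0, a separate scale for each gene) in the 6 groups; points are the authors' group values from 3 livers each, open circles PBS and filled squares ASNase, and bars run between the Cuffdiff bounds. H2-K1 stays between 605 and 868 FPKM, H2-Q4, H2-Q6 and H2-Q7 are highest in Atf4-/- ASNase, and H2-Q10 and H2-Q1 are lowest there.

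In the T and M regions no gene was called. H2-T23 (Qa-1), which presents leader peptides of other class I chains to NK cell receptors, read 173, 118, 189, 157, 183 and 97.9 FPKM. H2-T22, a ligand of some gamma delta T cells, read 60.4, 42.5, 55.5, 75.4, 55.3 and 36.4 FPKM with bounds that reached down to 0 to 4.498, and shared 31.5% of its 100-base stretches with other genes, H2-T10 among them. H2-T24, H2-T10 and H2-Bl stayed under 2.75 FPKM or at it, with lower bounds of 0 in every group. H2-M3, which presents formylated peptides of bacteria, kept between 1.76 and 2.69 FPKM. Among the members outside the classes, H2-K2 read 13.4, 9.11, 12.4, 5.67, 12.3 and 2.53 FPKM, lowest in Atf4-/- ASNase, with a log2 difference from PBS of -2.24 ± 1.86 and overlapping bounds. H2-Ke2, a prefoldin subunit, ranged from 39.5 to 59.1 FPKM, and H2-Ke6, a steroid dehydrogenase that shares 61.6% of its 100-base stretches with another gene model, from 43.7 to 88.7 FPKM.

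Other genes of the pathway were followed in lists chosen from their known roles. Of 7 genes for the immunoproteasome and peptide trimming, 6 were lower after ASNase in WT, 6 higher in Gcn2-/- and all 7 lower in Atf4-/- livers, with median log2 differences of -0.56, 0.21 and -1.19, none called. Psmb8, a catalytic subunit, read 30.8, 14.6, 23.6, 41.2, 35.0 and 13.8 FPKM, and Psmb9 read 19.4, 11.5, 19.4, 15.7, 18.5 and 5.47 FPKM. Psme2, a subunit of the PA28 activator and the most abundant of the list, read 617, 423, 617, 761, 598 and 303 FPKM. Of the 4 loading partners in the endoplasmic reticulum, none was called; Calr, the chaperone calreticulin, was the most abundant and read 402, 242, 326, 616, 285 and 740.0 FPKM. Of 8 genes for class II peptide processing, Lgmn, an endosomal asparagine-specific protease, was called higher in Atf4-/- ASNase than in WT ASNase (83.5 against 26.8 FPKM, log2 1.63 ± 0.96). None was lower by the call rule in any comparison. Ctsl, the most abundant gene of this list, read 294 (140 to 448) FPKM in Atf4-/- PBS and 2832 (157 to 5506) in Atf4-/- ASNase. Its bounds overlapped, so it was not called.

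Among 11 regulators of MHC transcription none was called in any of the 9 comparisons. Irf1, an interferon-induced activator of class I genes, read 17.2, 11.7, 22.5, 16.5, 18.0 and 13.8 FPKM, with differences under ASNase of -0.38 to -0.55 (log2) in the 3 strains. Nfyb, a subunit of NF-Y, had the highest value of the list, in Gcn2-/- PBS, and read 25.3, 20.2, 29.02, 18.7, 22.7 and 11.6 FPKM. Of 5 genes of the interferon gamma receptor pathway, Socs1, its feedback inhibitor, read 0.460, 0.289, 0.378, 1.45, 0.429 and 6.90 FPKM and rose by 3.73 ± 1.48 (log2) in Atf4-/- livers under ASNase.

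Interferon response genes were called between the knockouts in most cases. Of 10 such genes, 9 were higher after ASNase in Gcn2-/- livers. Of these, 3 were called (Gbp2, Isg15 and Oas1a), beside 1.56% of all genes called higher. All 10 were lower in Atf4-/- livers, with 4 called (Iigp1, Ifit1, Ifit3 and Usp18), beside 4.63% of all genes called lower. Isg15 read 20.2, 7.96, 12.6, 196, 12.6 and 4.78 FPKM, and Gbp2 read 4.78, 2.13, 3.55, 23.7, 3.46 and 1.82 FPKM. Between Atf4-/- ASNase and Gcn2-/- ASNase, 9 of the 10 were called lower (Gbp2, Gbp3, Irgm1, Iigp1, Isg15, Ifit1, Ifit3, Oas1a and Usp18). Over all genes that could be called, 3.19% were called there in either direction. Under ASNase, class II chains were low in both knockouts. H2-Q4 to H2-Q7 were above their PBS level in both, but were not called within a strain. H2-D1, Tapbp, Tap1 and H2-T22 were highest in Gcn2-/- ASNase, but none of them was called, and Tap1 read 13.3 against 12.9 FPKM in WT PBS. H2-K1 and B2m were highest in WT PBS, and H2-T23 in Gcn2-/- PBS. Isg15 and Gbp2 were also highest in Gcn2-/- ASNase but lowest in Atf4-/- ASNase, where H2-D1 read 437 against 339 FPKM under PBS. The part of interferon in any of these levels was not tested. Among 7 class I-like genes outside the H2 names, Cd1d1, which presents lipids to NKT cells, read 126, 110.3, 132, 93.5, 128 and 19.3 FPKM and had a log2 difference of -2.72 ± 1.04 (called) in Atf4-/- livers under ASNase. Procr, the receptor of protein C, rose by 3.06 ± 1.56 in Gcn2-/- livers, from 0.692 to 6.51 FPKM.

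**Figure D5:**
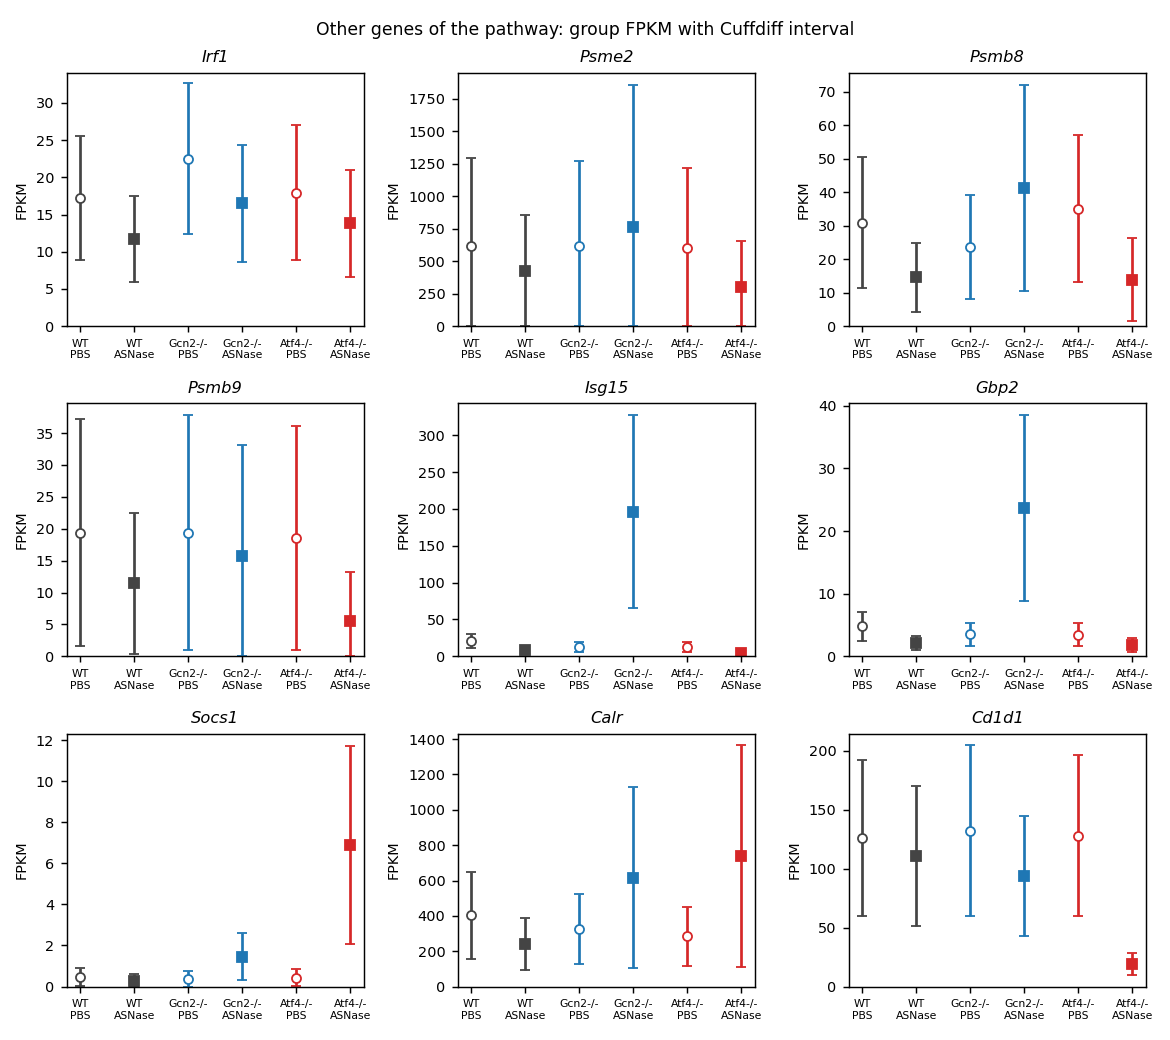
FPKM of 9 other genes of the pathway (vertical axes from 0, a separate scale for each gene) in the 6 groups; points are the authors' group values from 3 livers each, open circles PBS and filled squares ASNase, and bars run between the Cuffdiff bounds. Isg15 and Gbp2 peak in Gcn2-/- ASNase, Socs1 peaks in Atf4-/- ASNase at 6.90 FPKM, and Cd1d1 drops there to 19.3 FPKM.

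Over the 6 groups, the genes whose profile was most like the median of the 13 class I heavy chains with a mean over 1 FPKM were Tgm2 (Pearson r 0.983), Gm20412 (0.975), Ncf4 (0.972), Orm3 (0.956) and Pnrc1 (0.956), out of 2443 candidates. Tgm2, which encodes a transglutaminase, read 35.2, 21.8, 30.2, 85.9, 40.0 and 73.9 FPKM. Both ASNase-treated knockouts were highest and WT ASNase lowest, the order that H2-D1 also showed at its ends. These correlations are descriptions over 6 groups. The median was taken over levels not centred for each gene, so it followed the gene of middle abundance. That gene was H2-Q4 in every group except Atf4-/- ASNase, where it was H2-T22. The profile therefore does not describe H2-K1, H2-Q10, H2-T23 or H2-Q1, which ranked the groups otherwise.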

How the data were processed

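Liver poly-A RNA of 18 mice (3 per group) was sequenced by the authors as single-end reads, aligned to mm10 with TopHat and Bowtie, assembled with Cufflinks and Cuffmerge and quantified with Cuffdiff. The deposited FPKM values are 1 per gene and group, pooled by the authors over 3 libraries, with lower and upper bounds in FPKM and a status. Of these values, 160 over all genes had a status other than OK. Groups were taken from the sample labels. Depth per gene is unknown from FPKM, so the bounds give the precision, and p-values, an SD and an n per value were not possible.

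Comparisons were made in Python 3.11.15 with numpy 2.4.6, pandas 2.3.3 and matplotlib 3.10.9. The call rule (pseudocount 0.1, FPKM over 3, log2 difference over 1.5, separate bounds) ran over all 37303 genes. It was also run on simulated data with large changes only, which gives no error rate for smaller differences. A pseudocount understates the change of low genes. Half-widths combine the distances from value to upper bound, divided by the value plus pseudocount, as a root of summed squares on the log2 scale. Every member over 1 FPKM in a group was named, as were listed pathway genes that were called, the most abundant gene of a list without calls, and Irf1, Psmb8, Psmb9 and Ctsl. Some listed genes are not reported here. The members and lists were chosen with earlier results of these data known. The planned linear model needs values of single libraries and was not run. Promoters are RefSeq's (GRCm38.p6); 100-base stretches shared between genes were counted on GENCODE M21 transcripts. Alternatives changed the pseudocount, minimum, scaling, bounds rule and fold limit.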

Additional observations from a re-analysis of the deposited data

How the results depend on the processing

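Of the 9 counts of called members, each recomputed under 5 alternatives, 2 moved by over 1.5 times. With the difference set against the root of the summed squared half-widths in place of separate bounds, 8 members rather than 4 fell in Atf4-/- ASNase against Atf4-/- PBS, adding H2-DMa, H2-DMb1, H2-K2 and H2-Q10. Without a minimum FPKM, 1 member rather than 0 was called in Atf4-/- ASNase against Gcn2-/- ASNase (H2-Q1, lower). Shares of all genes under these alternatives are not reported here, so both counts stand without a background. A pseudocount of 1, a log2 limit of 1 and rescaling by median-ratio factors (0.978 to 1.03) left all 9 counts within 1.5 times. Of 522 log2 differences of named members recomputed with that pseudocount or scaling, 519 moved by less than their half-width and none of the called ones changed sign. The other 3 were those of H2-Q1 in Atf4-/- ASNase with a pseudocount of 1: -1.27 against Atf4-/- PBS, -2.29 against WT ASNase and -1.17 against Gcn2-/- ASNase. No paired analysis was possible because the table gives 1 pooled value per group and no value per replicate, and leaving out a replicate was not run for the same reason, so no result has a replicate check. The lung RNA of WT PBS and the muscle RNA of the WT groups could not be left out, since libraries are pooled.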
